A study of Homo sapiens with 34 samples.

Results

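Cassette exons of intermediate inclusion are exons that a cell line splices into some of a gene's transcripts and leaves out of the others. They were chosen here from the deposited splicing table as exon events longer than 27 bases, with at least 20 inclusion and exclusion reads in each of the 4 control libraries and a mean PSI of 20 to 80 over those libraries. PSI, the percent spliced in, is the share of transcripts that include the exon, as estimated from reads over splice junctions. Of 104485 exon events with that length and those reads, 1883 (1.8%) were members. The length of 865 members (45.9%) was divisible by 3 and that of 1018 was not, with a remainder of 1 in 485 and of 2 in 533. The members lay in 1441 named genes, 1126 of which held 1 member, and 16 members had no gene name. No member overlapped another, but exons of 1 gene share its transcripts and are not independent.

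The study sequenced total RNA of hTERT-RPE-1, a retinal pigment epithelium line immortalised with telomerase, after genome editing with hybrid guide RNAs (hgRNAs). An hgRNA joins a Cas9 guide to a Cas12a guide, so that 1 transcript can cut a pair of sites and delete what lies between. Lentivirus carrying the hgRNA was given at an estimated multiplicity below 1, cells were kept for 72 h in 20 µg/ml puromycin to select those transduced and grown for 4 days, and ribosomal RNA was depleted before stranded libraries were made. The 34 libraries form 17 groups of 2 biological duplicates.

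Both control hgRNAs cut intergenic sites with each nuclease. DDX5 and HNRNPD had intronic deletions, from 2 hgRNAs and 1 hgRNA. FNBP4 hgRNA 1 and 2 gave intronic deletions and FNBP4 hgRNA 3 and 4 deletions spanning a PTC exon, an exon that brings in a premature termination codon. The treatment labels describe the deletions of DDX17 and of HDAC7, from 2 hgRNAs each, as spanning a PTC exon too, although the titles of these libraries, and of FNBP4 hgRNA 3 and 4, say intronic. DDX5, DDX17, FNBP4 and HDAC7 were also knocked out with an exonic Cas9 guide of the TKOv3 library and an intergenic Cas12a guide. All 34 libraries thus carry the nucleases, a virus and puromycin selection. The HDAC7 deletion hgRNAs share a Cas9 guide, as do FNBP4 hgRNA 2 and 3. The label of the HDAC7 knockout lists the Cas9 guide of the FNBP4 knockout, and lists it again as the Cas12a guide. Each library is a pool of transduced cells, not a clone, and its share of edited alleles was not analysed here.

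Splicing joins exons so that a coding sequence is read in steps of 3 bases. Skipping a coding exon whose length is divisible by 3 removes amino acids and keeps the downstream reading frame, whereas skipping another coding exon shifts the frame and often brings in a stop codon. A stop well before the last exon junction marks a transcript for nonsense-mediated decay, the pathway by which a PTC exon lowers the level of its own gene. DDX5 and DDX17 are related RNA helicases that act in splicing and transcription, HNRNPD is an RNA-binding protein known for mRNA decay, FNBP4 holds WW domains that bind formin and splicing proteins, and HDAC7 is a class IIa histone deacetylase.

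The following exons show both length classes and are described again with their values. The sequences are the reference sequences of GENCODE v29 transcripts on GRCh38, 5′ to 3′ along the transcript. Capitals mark bases at either end of an exon that belong to a codon split by the splice junction, so lower-case bases form whole codons. In MTA1, GNAS and CHD3 the capitals at both ends add up to a codon, and skipping the exon joins split codons in frame. In WIZ, CTSC, DGUOK and TPM1 they do not add up.

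GNAS chr20:58898941-58898985, plus strand, 45 bases: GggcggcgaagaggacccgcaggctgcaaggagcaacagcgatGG
MTA1 chr14:105449359-105449409, plus strand, 51 bases: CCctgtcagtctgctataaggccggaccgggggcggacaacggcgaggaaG
SEC31A chr4:82862534-82862572, minus strand, 39 bases: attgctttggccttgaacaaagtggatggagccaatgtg
CHD3 chr17:7907601-7907702, plus strand, 102 bases: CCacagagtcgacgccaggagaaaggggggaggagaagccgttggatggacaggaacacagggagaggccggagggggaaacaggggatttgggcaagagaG
CRYZ chr1:74707103-74707204, minus strand, 102 bases: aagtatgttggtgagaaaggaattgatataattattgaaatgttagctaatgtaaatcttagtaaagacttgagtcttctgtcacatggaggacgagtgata
WIZ chr19:15442676-15442748, minus strand, 73 bases: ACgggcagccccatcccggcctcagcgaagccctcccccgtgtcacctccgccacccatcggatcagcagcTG
CTSC chr11:88328112-88328196, minus strand, 85 bases: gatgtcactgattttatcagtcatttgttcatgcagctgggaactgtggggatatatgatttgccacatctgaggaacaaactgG
DGUOK chr2:73957125-73957240, plus strand, 116 bases: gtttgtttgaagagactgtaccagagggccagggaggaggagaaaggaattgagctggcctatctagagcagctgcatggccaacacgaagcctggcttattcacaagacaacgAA
TPM1 chr15:63061198-63061273, plus strand, 76 bases: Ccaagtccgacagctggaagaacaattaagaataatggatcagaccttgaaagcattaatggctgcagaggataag

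Members were more often divisible by 3 than the exons outside the PSI window, and coding members more often than members of any other annotation class. The share divisible by 3 was 45.9% of members, 38.7% of the 84832 exons with a mean control PSI above 80 and 36.7% of the 17770 exons below 20. Among members annotated as coding sequence throughout, 545 of 895 (60.9%) were divisible by 3, against 39.2% of 73747 such exons above PSI 80 and 73.2% of 1218 below PSI 20. Members that carry a start or stop codon (31.2% of 125), lie in a 5′ untranslated region (27.6% of 261) or match no annotated exon (34.3% of 432) were divisible by 3 less often than coding members. Members seen only in transcripts annotated for nonsense-mediated decay came to 41.8% of 55, and those of noncoding genes to 37.3% of 67. These shares are descriptions, because the rule used the control PSI, and no test of a difference between the classes was made. Within the PSI window the share showed no steady trend: it was 41.2% for members at PSI 20 to 30, 48.8% at 50 to 60 and 45.4% at 70 to 80.

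**Figure D1:**
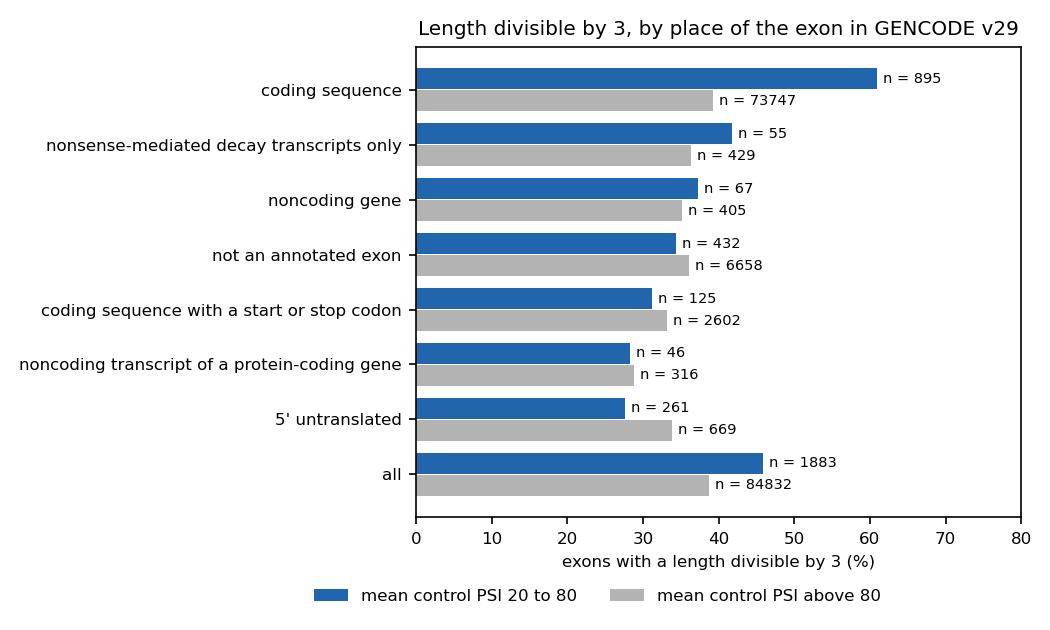
Share of exons with a length divisible by 3, in percent, by GENCODE v29 annotation class, for members and for exons with a mean control PSI above 80. Coding members stand at 60.9% against 39.2% of coding exons above PSI 80.

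What skipping would do to the protein was computed for coding members in annotated transcripts with a start and a stop codon, calling a stop early when it lay more than 50 bases before the last junction. Skipping gave an early stop in 3 of 502 members divisible by 3 (0.598%) and in 235 of 328 others (71.6%). The matching shares of coding exons above PSI 80 were 0.636% of 28612 and 87.1% of 44281, and those below PSI 20 were 0.517% of 580 and 49% of 210. In TPM1 the early stop came 18 codons after the new junction, in DGUOK after 3 codons and in WIZ after 55. The computation removed an exon and put no other in its place. The TPM1 exon has a mutually exclusive partner, described below, so lower inclusion of it need not give this early stop. In CTSC skipping ended the reading frame after 11 codons without an early stop by this measure.

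Members were short exons. The median length was 99 bases (quartiles 69 and 144) for those divisible by 3 and 110 bases (76 and 151.8) for the others. GC content was close in both classes, with medians of 49.6% and 48.8% over the 82.9% and 72.1% of members whose exon is annotated with these ends.

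The length class has a limit of its own. The table gives 1 length for each event, but 553 members (29.4%) list more than 1 start or end, against 12.5% of the other exons, and for 300 members (15.9%) the listed lengths fall in both classes. Of the 1330 members with single ends, 49.2% were divisible by 3, against 38.6% of 89805 other exons with single ends. Coding members with single ends gave 61.4% of 783. Members that match no annotated exon had several ends most often of the annotation classes (308 of 432, 71.3%), and those in noncoding transcripts of protein-coding genes came next (41.3%).

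The PSI window has soft edges. CDC14B, a phosphatase of the cell cycle, fell just outside with control values of 13.3, 26.5, 17 and 23.1 (mean 19.9950), and PSPH, a serine synthesis enzyme, just inside with 19.3, 21.2, 18.2 and 21.3 (mean 20.0025). At the upper edge MAPKAP1, a subunit of the mTORC2 kinase complex, had a mean of 80 and was a member, while DEDD2 at 80.0025 was not. The spread between control libraries was larger than these distances from the edge.

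Reads over exon events came to between 20361236 and 34219439 per library, and the median tested member had 115 inclusion and exclusion reads in a library. The libraries' median deviation from each member's own median was 3.4 to 5.85 points, apart from DDX17 deletion hgRNA 1 replicate 2 (7.81), FNBP4 hgRNA 3 replicate 1 (7.65) and HDAC7 deletion hgRNA 1 replicate 2 (7.27). In the authors' deposited RPKM table, pooled controls had epithelial keratins KRT8 (223.2) and KRT18 (251) and the pigment epithelium genes OTX2 (6.39), MITF (9.14) and RDH5 (21.8), while the defining visual-cycle and pigment genes RPE65 (0.05), RLBP1 (0.03) and TYR (0) were at or near 0. Markers of blood (PTPRC, 0.06), endothelium (PECAM1, 0.04) and muscle (MYOD1, 0.04) were near 0. For the edited gene itself, log2 fold changes against controls in the authors' deposited table were -1.85 in the DDX5 knockout (FDR 9.668e-14), -0.56 in the DDX17 knockout (FDR 0.0006812), -0.25 in the FNBP4 knockout and -0.08 in the HDAC7 knockout. The same table gave 1.61 and 1.27 for FNBP4 in hgRNA 3 and 4 (FDR 1.095e-07 and 8.322e-05), and between -0.44 and 0.30 for the edited gene in the other deletions. A Cas9 indel need not lower a transcript, so a level near that of controls does not check a knockout label. In these bulk samples fewer cells that use an exon and less use of it per cell cannot be told apart.

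The typical level of the members lay within a few points in both length classes and in every library. Of the 1883 members, 1189 had 20 reads in each of the 34 libraries and could be tested, 569 divisible by 3 and 620 not. Over the tested members, median PSI ranged from 57.1 to 58.4 in the control libraries for lengths divisible by 3, and from 56.3 to 58.9 for the others. Over the 30 edited libraries the ranges were 55.2 to 58.97 and 54.5 to 59.5. The mean PSI of the class divisible by 3 exceeded that of the other class by 0.28 to 0.89 points in the 4 control libraries and by -1.31 to 1.65 points in the edited ones. The ranges of the classes overlapped, in controls and in edited libraries.

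**Figure D2:**
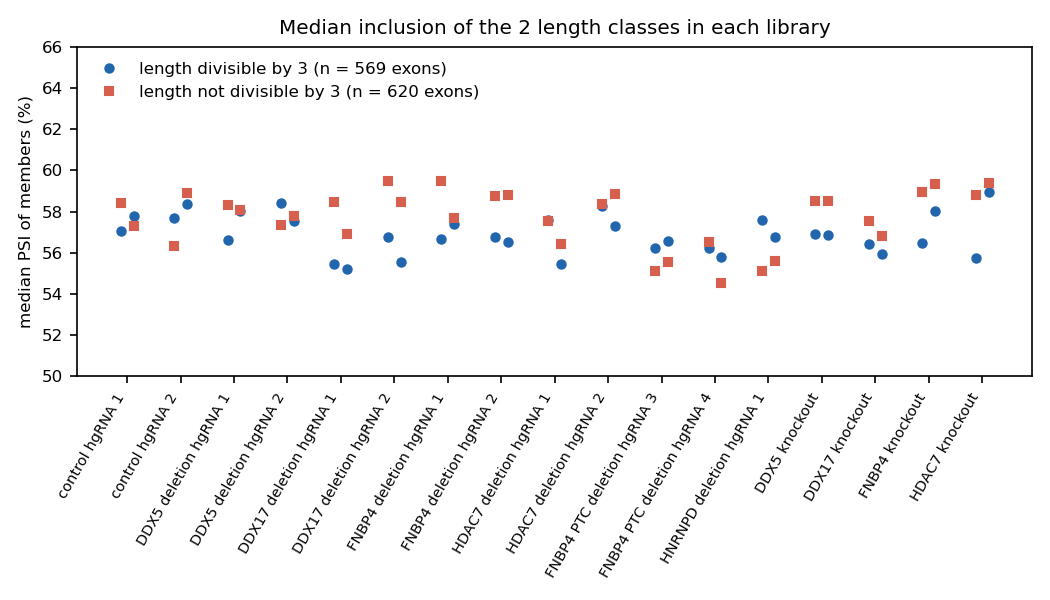
Median PSI in percent of the 569 tested members divisible by 3 and the 620 not divisible by 3, for each of the 34 libraries by group. All medians lie between 54.5 and 59.5; the axis starts above 0.

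Over the 17 group means, a tested member spanned a median of 20.7 points when divisible by 3 and 21.5 points otherwise, and 296 and 361 members spanned 20 points or more. Duplicates of 1 group differed by a median of 5.55 and 6.10 points. A span over 17 means of 2 libraries is above 0 from that spread alone, so these spans are descriptions. Members not divisible by 3 also had fewer reads (median 108.5 against 120.5 a library), and the part of reads in their spread was not tested.

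In all, 10 comparisons set an edited gene's libraries against the 4 controls in 1 limma fit over the 213815 splicing events with 20 reads in each library. The fit used inclusion over exclusion reads as a log2 ratio, after adding a pseudocount of 1 to each, which understates changes of exons with few reads. An exon was called when its Benjamini-Hochberg adjusted p was under 0.05 and its mean PSI differed by at least 10 points. The edited minus control differences use the control libraries by which the rule chose the members, and the 10 comparisons share those controls. An exon near PSI 0 or 100 has less room for a 10-point difference, so a larger share of called members than of all 80083 tested exons (the background) follows in part from the window itself.

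At least 1 comparison called 80 distinct members of 72 genes, 35 divisible by 3 (6.15% of those tested) and 45 not (7.26%). The order of the classes was not the same in all comparisons. Per class the called share was 1.23% against 2.26% in the DDX5 deletion and 2.64% against 3.71% in the FNBP4 PTC exon deletion, but 0.703% against 0.323% in the DDX5 knockout and 1.41% against 0.968% in the DDX17 knockout. Differences past 10 points, with or without a call, were found in 14.6% and 20.5% of members of the 2 classes in the FNBP4 PTC exon deletion, against 0.377% of all tested exons. No test of a difference between length classes was made.

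**Figure D3:**
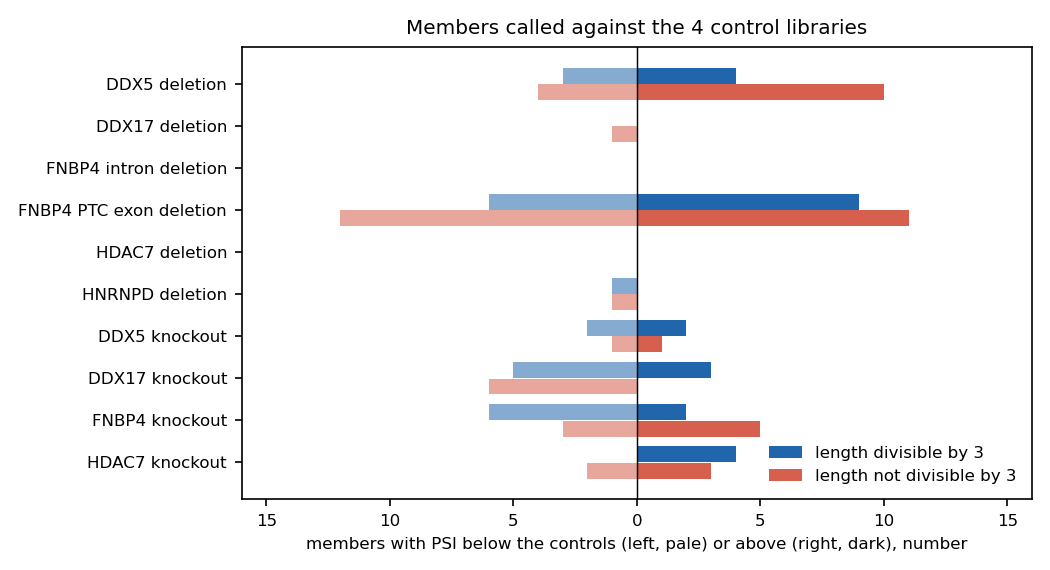
Number of called members in each comparison with controls by length class, lower inclusion to the left (pale) and higher inclusion to the right (dark). The FNBP4 PTC exon deletion has 9 higher and 6 lower members divisible by 3, and 11 higher and 12 lower members that are not.

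The DDX5 intronic deletions moved 21 members, 14 to higher and 7 to lower inclusion, which is 1.77% of tested members beside 0.0512% of all tested exons (0.025% higher and 0.0262% lower). Of these, 7 were divisible by 3 and 14 were not. GNAS encodes the stimulatory G protein alpha subunit, and its 45-base exon separates the long and short forms. Its PSI was 56.0, 51.3, 54.2 and 58.7 in the controls and 68.0, 65.95, 63.9 and 68.5 in the DDX5 deletions. These values did not overlap, which the rule for naming exons required. The mean rose from 55.0 ± 3.13 to 66.6 ± 2.11 (SD, n = 4 each), a log2 ratio difference of 0.70 ± 0.09 (SE; limma adjusted p = 3.78e-05). In the DDX5 knockout the values were 59.03 and 57.8, just above the controls' mean, and the change was not called (limma adjusted p = 0.609).

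Exons of the exchange factor ARHGEF12, which activates RhoA, and of the Golgi matrix protein GOLGA2 fell in both DDX5 edits. For the 120-base ARHGEF12 exon, controls read 73.3, 82.9, 84.1 and 77.8, deletions 59.4, 58.5, 61.4 and 54.9, and knockouts 49.8 and 56.1. It fell by 20.97 points in the deletions (limma adjusted p = 4.03e-05) and by 26.5 points in the knockout (limma adjusted p = 0.000547). The 81-base GOLGA2 exon stood at 71.0, 76.3, 68.2 and 67.7 in controls, 48.8, 51.2, 58.6 and 51.9 in deletions, and 50.0 and 48.6 in knockouts. All these edited values of both exons lay under all control values, which the rule for naming exons required. GOLGA2 fell by 18.2 points in the deletions and 21.5 points in the knockout (limma adjusted p = 0.00143 and 0.0109). The falls were not limited to DDX5 edits. The ARHGEF12 exon was also called lower in the FNBP4 knockout, by 14.6 points (limma adjusted p = 0.0331). Of all 30 edited libraries, 9 lay below and 2 above all controls for ARHGEF12, and 15 below and 4 above for GOLGA2. OS9, a lectin of endoplasmic-reticulum-associated degradation, had a 165-base exon that fell from 49.7 ± 2.25 to 37.6 ± 2.05 (SD, n = 4 each; limma adjusted p = 0.000152).

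Among members not divisible by 3, a 62-base 5′ untranslated exon of the tetraspanin CD151 rose from 69.0 ± 2.15 to 85.1 ± 1.39 in the DDX5 deletions (SD, n = 4 each; limma adjusted p = 0.00138). The listed ends of this exon allow lengths of both classes. A 92-base exon of ADNP, a zinc-finger homeobox protein of chromatin, was at 68.2, 62.7, 67.2 and 61.6 in controls and at 97.1, 87.5, 96.5 and 93.8 in the deletions (limma adjusted p = 0.00271). Its listed ends also allow a length of 175 bases, of the same class. WIZ, a zinc-finger partner of the G9a and GLP methyltransferases, rose from 42.9, 57.9, 50.5 and 37.0 to 82.6, 81.8, 62.7 and 68.2 (limma adjusted p = 0.0355). Skipping this 73-base exon gives an early stop in its annotated transcript. The WIZ call was lost without any 1 of the libraries (limma adjusted p = 0.0724 to 0.143), whereas GNAS, ARHGEF12, GOLGA2, OS9, ADNP and CD151 kept theirs each time.

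The largest of the 21 differences came from an exon with few reads. This 57-base exon of the focal-adhesion protein TNS3, with 21 to 134 reads a library, rose from 21.6 ± 7.07 to 57.9 ± 14.9 (SD, n = 4 each; limma adjusted p = 0.0132). It matches no annotated exon. An exon of PTGR1, a prostaglandin reductase, rose by 24.6 points in the DDX5 deletions and by 24.9 points in the FNBP4 PTC exon deletions (limma adjusted p = 0.0174 and 0.0228). The TNS3 and PTGR1 calls were lost without at least 1 library (limma adjusted p up to 0.121 and 0.151). The DDX5 deletion count fell to 9 when control hgRNA 1 replicate 2 was left out and to 9 when control hgRNA 2 replicate 1 was, and it was 12 and 13 without DDX5 hgRNA 1 replicate 1 and 2. When only the comparison's own libraries were fitted and held to the read minimum, 49 of 1707 members were called (background 0.101%).

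The DDX5 knockout moved 6 members, 3 in each direction (0.505%, beside 0.0125% of all tested exons, 0.00499% higher and 0.00749% lower), 4 of them divisible by 3. Besides ARHGEF12 and GOLGA2, a 150-base exon of the cytoskeletal linker DST rose from 71.2 ± 2.97 (SD, n = 4) to 94.8 and 82.2 (limma adjusted p = 0.0441). A 99-base exon of the kinase MOK, which matches no annotated exon, rose from 64.5, 61.6, 71.5 and 73.7 to 81.6 and 88.4 (limma adjusted p = 0.0115). The largest difference was in a 248-base 5′ untranslated exon of the GTPase RABL2B, at 60.5, 22.03, 25.9 and 41.2 in controls and 93.0 and 95.8 in the knockout. Its median was 37 reads a library, and its listed ends allow lengths of both classes. ARHGEF12 kept its call without each library in turn, and the other named calls were lost without at least 1 (limma adjusted p up to 0.832, for DST). The count fell to 1 when control hgRNA 1 replicate 2 was left out and to 1 when control hgRNA 2 replicate 1 was, and it rose to 10 without knockout replicate 2.

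Set directly against each other, the DDX5 deletions and the DDX5 knockout differed in 3 members (background 0.00874% of all tested exons, 0.0025% higher and 0.00624% lower), all with lower inclusion in the deletions. This contrast was added after the data were seen. Its difference in means uses no control library. The controls did enter the estimate of the spread, and the rule had chosen the members by them. RABL2B was lower by 59.7 points, an exon of the actin-regulating kinase LIMK2 by 20.4 points, and the CHD3 exon printed above by 11.7 points (limma adjusted p = 0.0161, 0.0121 and 0.0174). The CHD3 exon read 49.2, 51.6, 50.3 and 52.1 in the deletions and 64.7 and 60.4 in the knockout. CHD3 is a helicase of the nucleosome remodelling and deacetylase complex NuRD. The count was 0 without DDX5 deletion hgRNA 1 replicate 1, 0 without hgRNA 2 replicate 2, 1 without hgRNA 2 replicate 1 or knockout replicate 1, and 11 without knockout replicate 2.

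The DDX17 knockout lowered more members than it raised, 11 against 3 (1.18% of tested members beside 0.0312% of all tested exons, which split 0.0262% lower and 0.00499% higher). All 6 called members not divisible by 3 fell, and those divisible by 3 split 5 lower and 3 higher. The 207-base exon of MYLK, the kinase that phosphorylates myosin light chains, was at 56.8, 64.3, 58.5 and 60.1 in controls and 33.9 and 34.2 in the knockout. It fell by 25.8 points, with a log2 ratio difference of -1.53 ± 0.16 (SE; limma adjusted p = 5.84e-06). A 51-base exon of RCC1, the exchange factor of the nuclear GTPase Ran, read 33.3, 40.5, 44.5 and 40.6 in controls and 10.1 in both knockout libraries (limma adjusted p = 0.00034).

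A 220-base exon of MKNK2, a kinase of the translation factor eIF4E, fell from 46.0 ± 6.09 (SD, n = 4) to 12.4 and 9.58, and a 130-base exon of the Arf GTPase-activating protein ASAP2 from 43.3 ± 5.07 (SD, n = 4) to 15.6 and 12.9 (limma adjusted p = 0.000742 and 0.00656). For ASAP2 another listed end gives 135 bases, in the other class. The 82-base exon of the kinesin light chain KLC1, annotated only in transcripts subject to nonsense-mediated decay, fell from 26.4, 28.0, 26.3 and 28.6 to 9.51 and 8.95 (limma adjusted p = 3.82e-06). Its values in the DDX5 deletions, 38.5, 36.9, 37.6 and 39.4, were all above the controls (limma adjusted p = 0.00996). MINK1, a kinase of the germinal center family, had a 111-base exon that rose from 48.1, 44.9, 43.2 and 41.2 to 76.4 and 83.0 in the DDX17 knockout (limma adjusted p = 0.00642).

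TPM1 encodes tropomyosin, which covers actin filaments, and holds a pair of mutually exclusive exons. The 76-base exon printed above fell from 76.9, 76.9, 77.5 and 78.9 to 62.6 and 61.2 in the DDX17 knockout, and its partner rose from 34.3, 31.5, 31.1 and 30.9 to 46.3 and 49.7 (limma adjusted p = 5.09e-06 and 0.00034). In the FNBP4 PTC exon deletions the 76-base exon fell to 61.9, 60.02, 59.9 and 61.2 and the partner rose to 45.6, 54.9, 51.3 and 53.1 (limma adjusted p = 1.79e-08 and 4.39e-07). None of these edited values overlapped the controls, which the rule for naming exons required only for the partner in the DDX17 knockout. The table lists the partner with 63 bases, divisible by 3, at chr15:63061726-63061788, but an annotated exon with the same end, chr15:63061713-63061788, has 76 bases, so its length class rests on the listed start. RCC1, MYLK, MKNK2, KLC1 and both TPM1 exons kept their DDX17 knockout calls without each library in turn, and the count stayed between 11 and 12. MINK1 and ASAP2 lost theirs without at least 1 library (limma adjusted p up to 0.0934 and 0.0665).

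The DDX17 deletions moved 1 member against controls (0.0841%, beside 0.0025% of all tested exons, all lower). It was a 146-base exon of TSC22D1, a leucine-zipper protein first known as induced by TGF-beta, which fell by 16.7 points (limma adjusted p = 0.045). The TSC22D1 exon was low in other edits too: 24 of the 30 edited libraries lay under the lowest control (55.14), among them all deletions of DDX5, DDX17 and HDAC7, the FNBP4 intronic deletions and all knockouts. At an unadjusted p under 0.05 there were 125 members (10.5%, beside 8.87% of all tested exons). The count was 28 without DDX17 deletion hgRNA 1 replicate 1, TSC22D1 and 27 others. It was 1 without replicate 2, the library that stood apart. It was 0 without control hgRNA 1 replicate 1 or 2, control hgRNA 2 replicate 1, or DDX17 hgRNA 2 replicate 1 or 2.

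Against the DDX17 knockout, the DDX17 deletions had higher inclusion in 17 members and lower inclusion in 6, together 13 divisible by 3 and 10 not (background 0.04% of all tested exons, 0.0312% higher and 0.00874% lower). MYLK was higher by 26.03 points, RCC1 by 29.8 points, MKNK2 by 28.7 points and the 82-base KLC1 exon by 20.9 points (limma adjusted p = 3.76e-06, 0.000485, 0.00529 and 1.99e-07). An exon of fibronectin (FN1), the matrix protein, was higher by 15.98 points, and 1 of the microtubule-associated MAP7D1 by 17.3 points (limma adjusted p = 0.0018 and 0.00205). MINK1 was lower by 34.8 points, CHD3 by 12.1 points and a pair of exons of the myotonic dystrophy kinase DMPK by 25.5 and 27.8 points (limma adjusted p = 0.00769, 0.00612, 0.0147 and 0.00444). The count was 59 without DDX17 deletion hgRNA 1 replicate 1, 21 without replicate 2, 15 without hgRNA 2 replicate 2, 13 and 15 without knockout replicate 1 and 2, and 3 of 1379 tested when only these libraries were fitted and held to the read minimum.

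**Figure D4:**
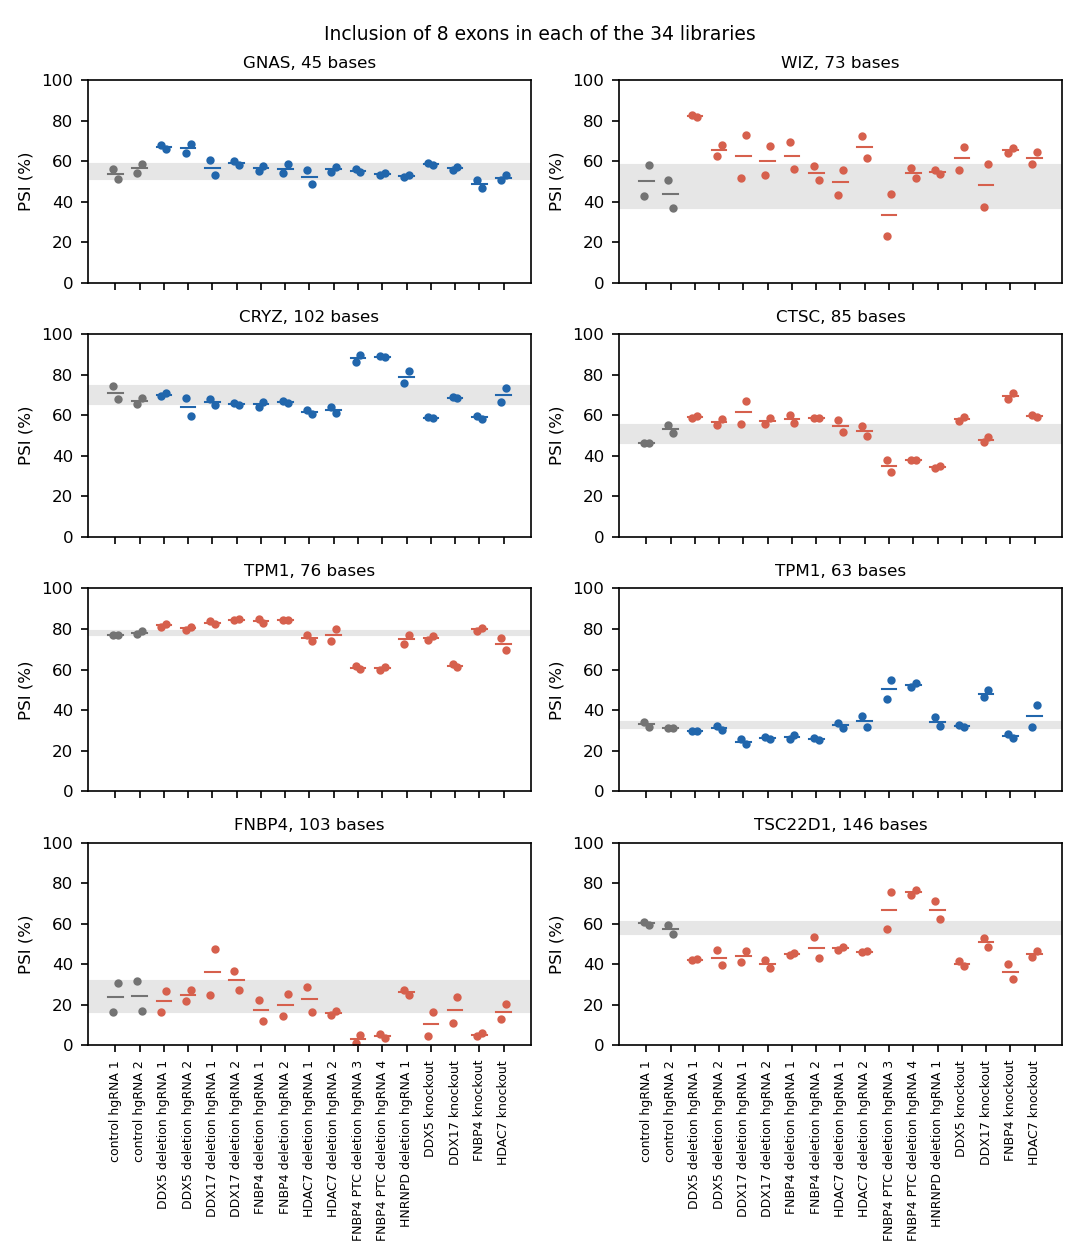
PSI in percent of 8 exons in all 34 libraries; dots are libraries, short lines group means, the grey band the range of the 4 controls, and blue marks lengths divisible by 3. CRYZ stands above the control band in all 4 FNBP4 PTC exon deletion libraries (86.1 to 89.97) and both TPM1 exons leave it there and in the DDX17 knockout.

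The FNBP4 PTC exon deletions, in which the authors' table had FNBP4 RNA above controls, moved 38 members, 20 higher and 18 lower (3.2% of tested members beside 0.0599% of all tested exons, 0.0337% higher and 0.0262% lower). For 33 of them all 4 libraries lay outside the control range. A 103-base exon of FNBP4 itself (chr11:47732117-47732219, minus strand) was at 16.7, 30.9, 31.6 and 16.8 in controls and at 0.96, 5.01, 5.45 and 3.61 in the deletions. It fell by a log2 ratio of 3.01 ± 0.50 (SE; limma adjusted p = 0.00231), with 21 to 201 reads a library. GENCODE v29 has no exon with these ends, and the labels do not say where the deletions lie, so whether they remove this exon was not tested. In the FNBP4 knockout the same exon read 4.55 and 5.88, also under all control values, and was not called (limma adjusted p = 0.137). In the FNBP4 intronic deletions it read 22.4, 12.0, 14.7 and 25.3. Over all 30 edited libraries, 14 lay below and 2 above all controls for this exon, so low values were not limited to FNBP4 edits.

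The 102-base exon of CRYZ, a quinone oxidoreductase also known as zeta-crystallin, rose in the PTC exon deletions from 74.6, 67.8, 65.7 and 68.3 to 86.1, 89.97, 89.1 and 88.6. The mean went from 69.1 ± 3.81 to 88.4 ± 1.65 (SD, n = 4 each), a log2 ratio difference of 1.76 ± 0.18 (SE; limma adjusted p = 7.93e-06). Exons of the cortical protein PHLDB2, the polarity scaffold DLG1 and the actin-associated RAI14 fell. The PHLDB2 exons of 75 and 133 bases went from 74.0 ± 3.36 to 54.1 ± 5.07 and from 76.4 ± 5.65 to 54.8 ± 2.83 (SD, n = 4 each; limma adjusted p = 0.000134 and 0.00046). The 99-base DLG1 exon fell by 16.5 points and the 87-base RAI14 exon by 13.7 points (limma adjusted p = 0.0349 and 0.00423).

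The 85-base exon of CTSC, the lysosomal protease cathepsin C, moved in opposite directions in FNBP4 edits. Controls read 46.4, 46.2, 55.2 and 51.2, PTC exon deletions 37.9, 32.1, 37.8 and 38.2, and knockouts 68.0 and 70.9. It fell by 13.3 points in the deletions and rose by 19.7 points in the knockout (limma adjusted p = 0.00149 and 0.000294). The HNRNPD deletion, at 33.8 and 34.8, was also under all controls (limma adjusted p = 0.0157). Values outside the controls were not limited to these edits: of all 30 edited libraries, 19 lay above and 6 below all controls for CTSC. TSC22D1 read 61.1, 59.5, 59.5 and 55.1 in controls, 57.2, 75.8, 74.1 and 76.9 in the PTC exon deletions and 40.03 and 32.7 in the knockout. It rose by 12.2 points and fell by 22.4 points (limma adjusted p = 0.0188 and 0.00317). Replicate 1 of hgRNA 3 lay within the controls and the other 3 deletion libraries above them.

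Other members of the PTC exon deletions had wider spread. A 289-base exon of KLHL5, an adaptor of the kelch family, rose from 38.8 ± 9.79 to 67.0 ± 8.99 (SD, n = 4 each; limma adjusted p = 0.0122), and a 5′ untranslated exon of 33 bases in PLD3, of the phospholipase D family, from 30.6 ± 5.74 to 51.2 ± 7.27 (SD, n = 4 each; limma adjusted p = 0.0135). A 128-base exon of RNF146, a ubiquitin ligase of poly-ADP-ribosylated proteins, fell by 21.9 points, and a 90-base exon of the lipid phosphatase PLPP4 by 10.8 points (limma adjusted p = 0.00955 and 0.000809). PLPP4 lists another length of 125 bases, the longer PHLDB2 exon another of 141 bases, and KLHL5 also lists lengths of both classes. CRYZ, FNBP4, CTSC, both PHLDB2 and both TPM1 exons kept their calls without each library in turn, and the other named calls were lost without at least 1 (limma adjusted p up to 0.26, for DLG1). The count fell to 13 when control hgRNA 1 replicate 2 was left out and to 14 when control hgRNA 2 replicate 1 was. It was 16, 13 and 22 without hgRNA 3 replicate 1, hgRNA 4 replicate 1 and hgRNA 4 replicate 2, and 85 without hgRNA 3 replicate 2. With the other edited groups in place of the controls, which the rule did not use, 99 members were called, and the background rose to 0.171% of all tested exons.

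The FNBP4 knockout moved 16 members, 7 higher and 9 lower (1.35%, beside 0.0462% of all tested exons, 0.00999% higher and 0.0362% lower), 8 of each length class. The 2961-base exon of VCAN, the matrix proteoglycan versican, encodes a domain that carries glycosaminoglycans. It rose from 24.0, 19.7, 21.4 and 21.5 to 36.1 and 37.4 (limma adjusted p = 6.09e-05). The 39-base exon of SEC31A, a coat protein of vesicles that leave the endoplasmic reticulum, fell from 74.4, 69.1, 75.6 and 74.3 to 57.0 and 50.2 (limma adjusted p = 0.00225). The 51-base exon of MTA1, a NuRD subunit, fell from 68.9, 72.2, 67.0 and 71.0 to 45.6 and 35 (limma adjusted p = 0.0276). No knockout value of these exons overlapped the controls, which the rule for naming exons required. Over all 30 edited libraries, 12 lay above and 15 below all controls for MTA1, 7 and 15 for SEC31A, and 8 and 10 for VCAN.

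DGUOK, the mitochondrial deoxyguanosine kinase, had a 116-base exon that rose from 53.4 ± 6.31 (SD, n = 4) to 75 and 78.1 (limma adjusted p = 0.0263). CELF1, an RNA-binding splicing regulator, had a 152-base exon that rose from 60.2 ± 2.93 (SD, n = 4) to 79.6 and 83.5 (limma adjusted p = 0.0379). Fallen members included a 141-base exon of LTBP3, which binds latent TGF-beta (61.2, 64.0, 58.95 and 57.1 in controls, 39.1 and 47.8 in the knockout), and a 5′ untranslated exon of the transcription factor ETV1, from 22.6 ± 4.52 (SD, n = 4) to 10.0 and 6.31 (limma adjusted p = 0.00927 and 0.0205). The MTA1 and CELF1 calls were lost without any 1 of the libraries (limma adjusted p = 0.0567 to 0.127 and 0.0652 to 0.149). TSC22D1, CTSC, VCAN and SEC31A kept theirs, and DGUOK, LTBP3 and ETV1 lost theirs without at least 1 library (limma adjusted p up to 0.273, for LTBP3). The count fell to 6 when control hgRNA 1 replicate 2 was left out, to 5 when control hgRNA 2 replicate 1 was, and to 5 without knockout replicate 1.

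Direct comparison of the FNBP4 PTC exon deletions with the FNBP4 knockout called 87 members (background 0.224% of all tested exons, 0.132% higher and 0.0912% lower). Again the controls entered the estimate of the spread but not the difference in means. In the deletions 38 were higher and 49 lower, and 38 were divisible by 3 and 49 not. CTSC was lower by 33 points and the 76-base TPM1 exon by 19.2 points, while the TPM1 partner exon was higher by 23.9 points (limma adjusted p = 1.2e-08, 1.45e-08 and 1.01e-07). MTA1 was higher by 42.6 points, from 45.6 and 35 in the knockout to 74.0, 86.1, 85.7 and 86.0 in the deletions (limma adjusted p = 3.53e-05). TSC22D1 was higher by 34.7 points and CRYZ by 29.5 points (limma adjusted p = 9.5e-07 and 3.78e-07).

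A 71-base exon of MDM2, the ubiquitin ligase of p53, was lower in the deletions by 29.7 points (limma adjusted p = 0.00211), and VCAN by 15.5 points (limma adjusted p = 1.66e-06). Several genes moved through more than 1 exon. The growth factor NRG1 had 1 exon higher by 28.8 points and another lower by 32.6 points (limma adjusted p = 1.5e-05 and 2.82e-05), and 3 exons of the replication factor GINS1 were lower by 26.7, 26.6 and 31.4 points (limma adjusted p = 0.00146, 0.00226 and 0.00352). Exons of the splicing proteins ACIN1 and HNRNPA2B1 were higher by 24.4 and 20.5 points and 1 of SFPQ was lower by 18.5 points (limma adjusted p = 0.00482, 0.0135 and 0.00833). These exons of NRG1, GINS1, ACIN1, HNRNPA2B1 and SFPQ were picked after their values were seen. The count was 45 without FNBP4 knockout replicate 1, 80 without hgRNA 3 replicate 1, between 62 and 100 without each of the other libraries, and 23 of 1486 tested when only these libraries were fitted and held to the read minimum.

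The FNBP4 intronic deletions called 0 members and 0 of all tested exons (0%), with 139 members at an unadjusted p under 0.05 (11.7%, beside 6.85% of all tested exons). Fitted with their own and the control libraries only, with the read minimum also set over these alone, 12 of 1769 members were called (background 0.0178%). COL8A1, by 19.95 and 19.76 points, was the 1 member called when control hgRNA 1 replicate 1 or control hgRNA 2 replicate 2 was left out. CTSC, for example, read 60.4, 56.1, 58.9 and 58.8 in these deletions, above all controls, and did not pass the adjusted threshold (limma adjusted p = 0.298).

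The HDAC7 deletions also called 0 members and 0 of all tested exons (0%), with 102 members at an unadjusted p under 0.05 (8.58%, beside 7.88% of all tested exons). Besides FNBP4, the edited genes with members were HDAC7 and DDX5. HDAC7 has a pair of members, both coding. The 111-base exon was at 57.9, 57.5, 63.0 and 65.0 in controls, 57.2, 75.8, 69.5 and 54.5 in the HDAC7 deletions and 48.8 and 59.4 in the HDAC7 knockout, so the groups overlapped (limma adjusted p = 0.926 and 0.823). The 51-base exon was at 42.3 ± 3.10 in controls and 42.4 ± 2.14 in the deletions (SD, n = 4 each). The DDX5 exon, of 87 bases in a noncoding transcript (chr17:64501057-64501143, minus strand), had a median of 21 reads a library and was not tested. It was at 63.6, 59.5, 70.1 and 53.4 in controls and 61.5, 64.5, 75 and 70.4 in the DDX5 deletions, which overlapped, and the DDX5 knockout had 1 value, listed at 0.

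The HDAC7 knockout moved 9 members, 7 higher and 2 lower (0.757%, beside 0.0237% of all tested exons, 0.0162% higher and 0.00749% lower). A 170-base 5′ untranslated exon of COL8A1, a short-chain collagen, rose from 34.4, 23.4, 32.9 and 43.1 to 61.0 and 65.7 (limma adjusted p = 0.00104). MOK rose to 86.8 and 88.0, and 23 of the 30 edited libraries were above its highest control (73.7), among them all HDAC7 and DDX17 deletions, the FNBP4 intronic deletions and all knockouts. CHD3 rose from 59.5, 58.9, 56.8 and 64.4 to 71.7 and 71.5 (limma adjusted p = 0.00152 for MOK and 0.00466 for CHD3). CD151 rose to 84.0 and 91.8 (limma adjusted p = 0.00258). The 2 lower members were an exon of the long noncoding RNA PAX8-AS1, at 22.9 and 16.5 against 55.8 ± 15.1 in controls (SD, n = 4), and 1 of MEGF6, an EGF-repeat protein, at 41.0 and 37.1 against 61.8 ± 7.71 (SD, n = 4; limma adjusted p = 0.0345 and 0.00991).

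MOK and COL8A1 kept their HDAC7 knockout calls without each library in turn, and the other named calls were lost without at least 1. The count fell to 4 when control hgRNA 1 replicate 2 was left out and to 3 when control hgRNA 2 replicate 1 was. Against the HDAC7 knockout, the HDAC7 deletions had lower inclusion in 3 members (background 0.00874% of all tested exons, 0.00125% higher and 0.00749% lower): COL8A1 by 26.03 points, CD151 by 13.9 points and PTGR1 by 29.8 points (limma adjusted p = 0.0072, 0.0346 and 0.0374). That count was 1 without any 1 of the 4 deletion libraries, 1 without knockout replicate 2 and 6 without knockout replicate 1.

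The HNRNPD deletion, with 1 hgRNA and 2 libraries, moved 2 members, both lower (0.168%, beside 0.00624% of all tested exons, 0.0025% higher and 0.00375% lower). They were CTSC, given above, and the 90-base PLPP4 exon, which fell from 76.1, 77.3, 79.1 and 83.0 to 67.3 and 67.0 (limma adjusted p = 0.0161). At an unadjusted p under 0.05 there were 148 members (12.4%, beside 9.08% of all tested exons). With the other edited groups in place of the controls 37 members were called, where the background rose to 0.0712% of all tested exons. Left without control hgRNA 1 replicate 2, or without either library of control hgRNA 2, the fit kept 1 of the 2 calls. Both calls were lost without either HNRNPD library. The members then called were others and were higher, 1 without replicate 1 (PDLIM2, by 15.01 points) and 2 without replicate 2 (STK33 by 21.09 points and KMT5B by 21.86 points), named after their values were seen.

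A test of any difference among the 17 groups called 92 members, 42 divisible by 3 and 50 not (7.74% of tested members beside 0.241% of all tested exons; 7.38% and 8.06% of the classes). Without DDX17 deletion hgRNA 1 replicate 1 it called 191. Calls here needed an adjusted p under 0.05 and a span of group means of at least 10 points. The 76-base TPM1 exon spanned 24.1 points (limma adjusted p = 4.93e-11), from the FNBP4 hgRNA 4 deletion at the bottom to DDX17 deletion hgRNA 2 at the top. CTSC spanned 35.2 points, with the FNBP4 knockout highest and the HNRNPD deletion lowest, and KLC1 29.3 points, with DDX5 deletion hgRNA 2 highest and the DDX17 knockout lowest (limma adjusted p = 2.19e-07 for each). MOK spanned 38.2 points between the HDAC7 knockout and the FNBP4 hgRNA 4 deletion (limma adjusted p = 3.74e-06).

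By function, members were counted in lists of genes, with the same test. Their called shares stand beside 7.74% of all 1189 tested members and 0.241% of all tested exons. The lists were chosen with earlier results of these data known. Exons of the same gene were counted separately, such as both mutually exclusive TPM1 exons. The shares are therefore descriptions, and no list was tested against the other members. Of 51 tested members of cytoskeleton and adhesion genes 10 were called (19.6%), among them exons of TPM1, TNS3, FN1, SPTAN1, PXN, LMO7 and DST, with a median span of 22.5 points beside 21.1 points for all tested members. Kinase and GTPase signalling genes had 9 called of 37 tested (24.3%; median span 18.9 points), including MKNK2, MINK1, GNAS, NF2 and NRG1. Membrane traffic genes had 6 of 32 (18.8%; 22.5 points), including GOLGA2, SEC31A, ASAP2 and the autophagy receptor OPTN. Chromatin and transcription genes had 3 of 57 (5.26%; CHD3, ADNP and MBD1; 22.7 points), and cell cycle and DNA repair genes 2 of 20 (10%; MDM2 and NUMA1; 20.6 points). Of 24 tested members of splicing factor genes, 1 was called, the FNBP4 exon (4.17%; 20.0 points), and of 3 of nonsense-mediated decay factors 0 (20.4 points). Against controls the splicing factor list had 0 or 1 call in each comparison, CELF1 in the FNBP4 knockout and FNBP4 in the PTC exon deletions.

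Several called exons stood on 1 side of the controls in most edited libraries. At least 20 of the 30 edited libraries lay above all 4 controls for TNS3 (22), ADNP (22), MOK (23), DGUOK (22), CELF1 (25), COL8A1 (20) and CD151 (24), and below them for TSC22D1 (24), DLG1 (20) and RNF146 (23). The comparisons share these controls, so a difference for these 10 exons cannot be told apart from the level in the controls.

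**Figure D5:**
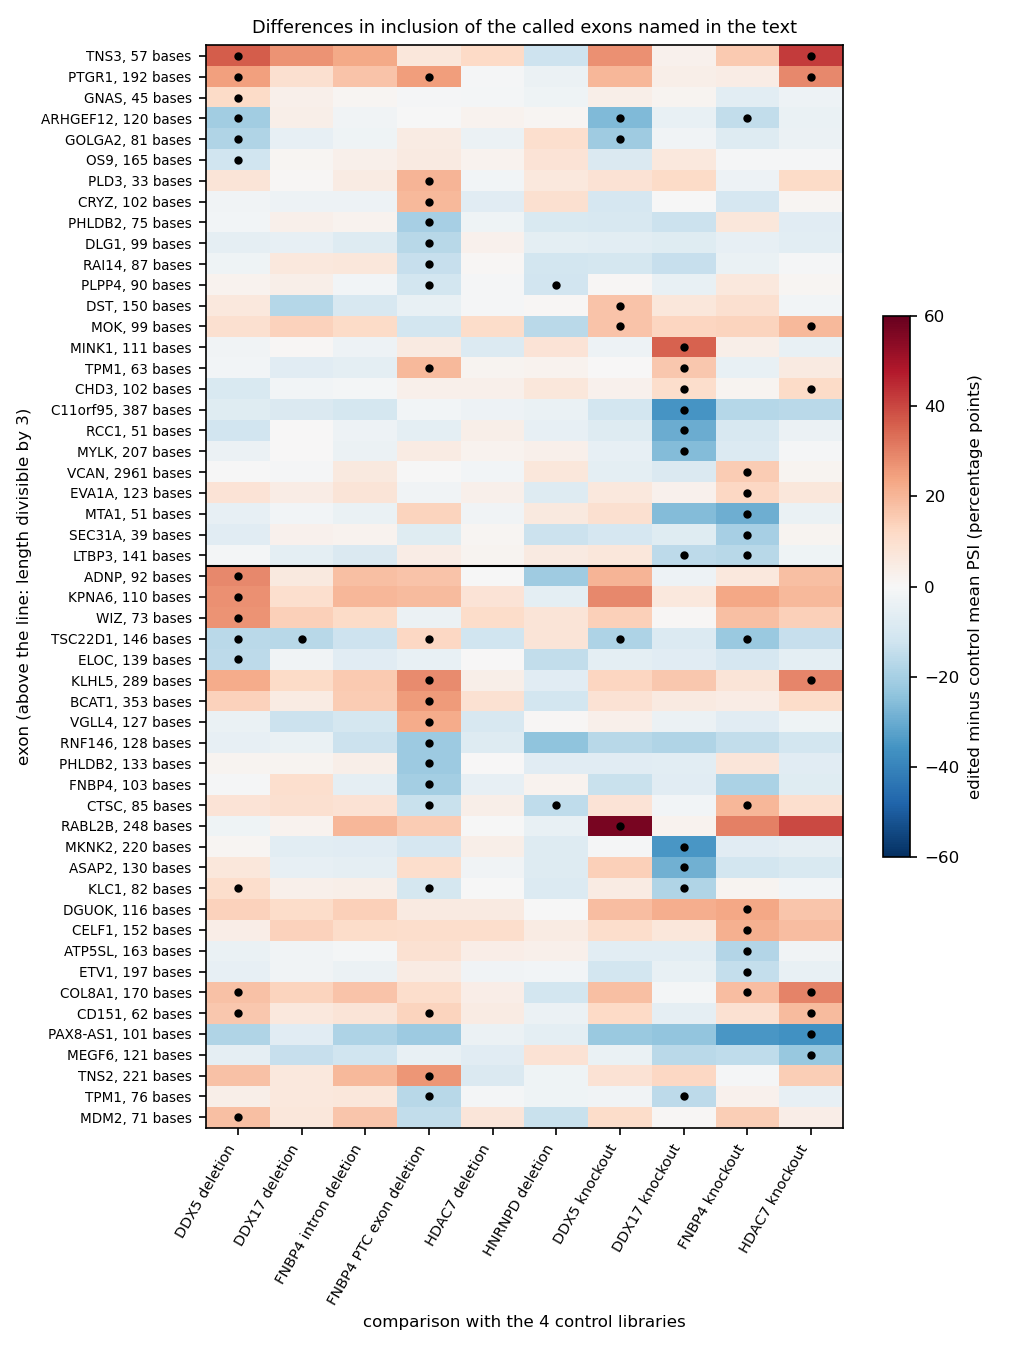
Difference in mean PSI, edited minus control in percentage points (colour, from -60 to 60), for 52 called exons in the 10 comparisons; the 25 above the line are divisible by 3 and dots mark calls. TSC22D1 and CTSC have opposite colours in the FNBP4 knockout and the deletions of the FNBP4 PTC exon.

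The authors' deposited table gives each event a score of significance per hgRNA. Of the 21 members called in the DDX5 deletions, 17 had a score above 0 for each hgRNA and 21 for at least 1, and of the 38 in the FNBP4 PTC exon deletions 27 and 37. Each member called in a knockout, in the DDX17 deletions or in the HNRNPD deletion had a score above 0. Among all 1189 tested members the scores were above 0 for each hgRNA in 34 and 45, and for at least 1 in 120 and 137. They were above 0 in 104, 96, 107 and 65 tested members in the knockouts of DDX5, DDX17, FNBP4 and HDAC7. The HNRNPD deletion had 71 such members, and the DDX17 deletions 11 for each hgRNA. The share of all tested exons with a score above 0 is not given here, so these counts show nothing particular to members. These scores come from the same libraries and are not an independent check.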

How the data were processed

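Splicing was measured by stranded total RNA sequencing of 34 libraries. The authors' deposited splicing table lists 721536 events, 223565 of them exons, with PSI in percent and inclusion and exclusion reads (other values, not all whole) for each library. That table's aligner and genome build were not given in the sources used here, and its exons were matched to GENCODE v29 on GRCh38 by coordinates, 77.1% of members matching both ends. A second deposited table holds the authors' scores of significance, and another the authors' RPKM values, log2 fold changes and FDR (adjusted p-values) per hgRNA, for which the submitters' processing notes name Salmon 1.10 and edgeR. Of the first table, 4 per-library columns of 2 libraries without labels here were not used.

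Groups came from the sample titles and treatment labels. Events with 20 reads in each of 34 libraries were fitted together in limma 3.58.1 (R 4.3.3) on log2 ratios, inclusion over exclusion reads plus a pseudocount of 1 each, with 1 coefficient per group and a prior variance that follows the sampling variance expected from the reads. Adjustment was by Benjamini-Hochberg over 213815 events. Tables and figures used Python 3.11.15, numpy 2.4.6, pandas 2.3.3 and matplotlib 3.10.9. Tested on simulated data for the DDX5 deletion, with 200 of 80083 exons changed, the fit recovered 16% of 15-point and 80% of 30-point changes and called 0 unchanged exons. The simulation gave every exon and library the same spread beyond read counting, changed only members of mid-range PSI and adjusted over the 80083 exons alone. It therefore does not give the rate of false calls in the real libraries, whose spread differed. The labels call the duplicates biological without saying what was repeated. With 1 coefficient per group, p-values measure the spread between duplicates within the 17 groups. Differences between hgRNAs of the same gene, or between the control hgRNAs, do not enter that spread. The SDs given over 4 libraries do include them. Duplicates were not copies: they had equal PSI in 0 to 5 of 1189 members.

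Named exons were, per comparison, length class and direction, up to 3 called members with the largest difference, the same sign in each hgRNA and every edited library outside the control range. For exons named in this way, the lack of overlap with controls in that comparison was required and is not a result. Added to these were 4 per class from the test over all groups, members in edited genes, up to 2 per gene list and 2 exons on each side of each PSI limit. Alternatives were a pseudocount of 0.5, 50 reads, 1 prior variance for all events, a replicate block, each control hgRNA alone, other edited groups as the reference, only the libraries compared, and leaving out each library. The members, gene lists and tests were chosen with earlier results of these data known.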

Additional observations from a re-analysis of the deposited data

Results flagged for a closer look

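In 6 of 94 sets of 4 libraries, 1 library lay farther from the others than Dixon's 95% limit allows, where chance gives about 1 in 20. Among FNBP4 PTC exon deletions, hgRNA 3 replicate 1 stood apart for TSC22D1 (PSI 57.25) and KLHL5 (80.43), and hgRNA 3 replicate 2 for CTSC (32.08). Control hgRNA 1 replicate 1 stood apart for the 63-base TPM1 row (34.27) and the 51-base HDAC7 exon (46.93), and DDX5 deletion hgRNA 2 replicate 1 for COL8A1 (54.33). The TSC22D1 and CTSC exons moved in opposite directions in the FNBP4 knockout and the deletions of the FNBP4 PTC exon. By the direct test they differed by 34.67 points (limma adjusted p = 9.5e-07) and -33.0 points (limma adjusted p = 1.2e-08).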

How the results depend on the processing

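Of 2710 values of named exons under an alternative, 2206 kept their call and 504 lost it. Of the 1936 values without 1 library, 1635 kept it. Values from the test over any of the 17 groups are included in these counts. They are spans of group means without a direction, so they could only keep or lose a call. Among the values with a direction, none reversed. Where all edited libraries lay outside the control range, as the naming rule mostly required, only other edited groups as the reference could reverse the direction. The lack of reversals is therefore largely fixed by that rule. The numbers of called members moved more, and the causes were not tested. Without 1 library they ranged from 9 to 22 in the DDX5 deletion, 0 to 28 in the DDX17 deletion, 0 to 1 in the FNBP4 intronic deletion, 13 to 85 in the FNBP4 PTC exon deletion, 0 to 0 in the HDAC7 deletion and 1 to 2 in the HNRNPD deletion, where 0 of the 2 calls remained without either HNRNPD library and 1 or 2 others, in the opposite direction, were called. In the knockouts they ranged from 1 to 10 (DDX5), 11 to 12 (DDX17), 5 to 23 (FNBP4) and 3 to 13 (HDAC7), and over any of the 17 groups from 68 to 191. For deletion minus knockout the ranges were 0 to 11 (DDX5), 13 to 59 (DDX17), 45 to 100 (FNBP4 PTC exon) and 1 to 6 (HDAC7). With 1 prior variance for all events the counts were 12 (DDX5 deletion), 0 (DDX17 deletion), 13 (FNBP4 PTC exon deletion), 0 (HNRNPD deletion), 2, 9, 3 and 2 (knockouts of DDX5, DDX17, FNBP4 and HDAC7), 30 (any group), and 13 (DDX17) and 0 (HDAC7) for deletion minus knockout. Control hgRNA 1 alone gave 0 (DDX17 deletion), 16 (FNBP4 PTC exon deletion), 0 (HNRNPD deletion), 3 (DDX5 knockout) and 10 (FNBP4 knockout). Control hgRNA 2 alone gave 6 (DDX5 deletion), 0 (DDX17 deletion), 12 (FNBP4 PTC exon deletion), and 1, 3 and 1 (knockouts of DDX5, FNBP4 and HDAC7). Other edited groups as the reference gave 2 (DDX17 deletion), 99 (FNBP4 PTC exon deletion), 2 (HDAC7 deletion), 37 (HNRNPD deletion), 25 (DDX17 knockout) and 3 (HDAC7 knockout). Fits of the compared libraries only, with the read minimum over these alone and so more events tested, gave 49 (DDX5 deletion), 0 (DDX17 deletion), 12 (FNBP4 intronic deletion), 14 (FNBP4 PTC exon deletion), 9 (DDX17 knockout) and 8 (FNBP4 knockout), and 9, 3, 23 and 0 for deletion minus knockout of DDX5, DDX17, FNBP4 PTC exon and HDAC7. The DDX17 deletion count was 0 with a pseudocount of 0.5 and 2 with 50 reads.

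Replicate numbers did not pair the libraries in most pairs of groups: deviations of same-numbered libraries correlated above 0.1 in 10 of 136 pairs (median -0.000903). The highest were 0.4154 (DDX17 and HDAC7 deletion hgRNA 1) and 0.2848 and 0.2282 (these 2 with control hgRNA 1), and 4 of the 10 were between knockouts, at 0.1018 to 0.1274. The remaining pairs of knockouts were also positive, at 0.06477 and 0.07428, so same-numbered knockout libraries shared some deviation. With the number as a replicate block, 24 members were called in the DDX5 deletion, 40 in the FNBP4 PTC exon deletion, 0 in the DDX17 deletion, 2 in the HNRNPD deletion, 7, 14, 17 and 9 in the knockouts of DDX5, DDX17, FNBP4 and HDAC7, 94 over any group, and 3, 24, 93 and 4 for deletion minus knockout of DDX5, DDX17, FNBP4 PTC exon and HDAC7. Depth limits the rest: 694 members lacked 20 reads in some library and were not tested, and simulated 30-point changes were recovered far more often than simulated 15-point ones. A library left alone in its group was assumed to vary like the other groups.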
